A study of Mus musculus with 2 samples.

Results

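The regions described here are the H3K9me3 peaks at the distal ends of the mouse autosomes, the ends that lie away from the centromere. A deposited peak was a member when its chromosome was one of 1 to 19 other than 4 and its start lay within 3 Mb of the largest peak end listed for that chromosome. This rule took 1080 of the 40119 peaks in the list, and 34933 peaks in all lay on the 18 autosomes concerned. The rule used position alone. Its anchor is the end of the last called peak and not the end of the chromosome, so the last peak of each autosome is a member by construction.

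The study profiled H3K9me3 by ChIP-seq in intestinal stem cells sorted as GFP high and CD24 low. The mice were Lgr5-EGFP-IRES-creERT2;setdb1fl/fl C57BL/6 animals 8 weeks old, and cells of 12 mice entered the protocol. There was 1 ChIP library and 1 control library from cells of the same description, with no replicate, so no test between samples was possible and none is given. The control is called input in its title and IgG in its antibody label, and the labels leave unsaid whether the Setdb1 gene was deleted before sorting. In such mice the Lgr5 locus drives both the GFP used for sorting and the tamoxifen-inducible Cre, and the floxed Setdb1 alleles are shared by both libraries. Both libraries are DNA, so marker expression could not check the cell type, and a higher share of cells with the mark cannot be told apart from more mark per cell.

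H3K9me3 is the histone mark of constitutive heterochromatin. SETDB1 is 1 of the enzymes that write it, and HP1 proteins bind it through a chromodomain. Mouse chromosomes are acrocentric: the centromere, with its satellite arrays, sits at one end, and the distal end carries subtelomeric sequence followed by the telomere repeat. H3K9me3 is known from telomeric and subtelomeric chromatin, from silenced retrotransposons, from zinc finger gene clusters and from the silent allele of imprinted control regions.

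Distal peaks reached promoters rich in CpG, and 5 such promoters are shown to let the sequence be seen beside the values that follow. Each lay wholly inside a distal peak. They were picked after their values were seen, for Ascl2 and Phlda2 in the imprinted domain of chromosome 7, for Csf2ra under one of the tallest end peaks, and for Kl and Rarg as developmental and endocrine genes. Each run is the 250 bases before the transcript start, 5′ to 3′, from RefSeq on GRCm38.p6, which is the same build as mm10. Capitals mark the CpG dinucleotides.
Ascl2 (chr7:142969265-142969514, - strand): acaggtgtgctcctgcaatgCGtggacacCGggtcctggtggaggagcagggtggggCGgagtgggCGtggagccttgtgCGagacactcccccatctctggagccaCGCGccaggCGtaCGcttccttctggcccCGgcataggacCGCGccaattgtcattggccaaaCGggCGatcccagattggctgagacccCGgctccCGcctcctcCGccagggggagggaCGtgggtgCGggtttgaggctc
Phlda2 (chr7:143502525-143502774, - strand): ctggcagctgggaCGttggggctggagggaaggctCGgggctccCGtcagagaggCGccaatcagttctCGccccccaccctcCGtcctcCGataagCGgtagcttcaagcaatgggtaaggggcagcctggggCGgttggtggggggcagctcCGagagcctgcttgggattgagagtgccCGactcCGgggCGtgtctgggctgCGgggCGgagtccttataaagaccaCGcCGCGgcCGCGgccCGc
Csf2ra (chr19:61228419-61228668, - strand): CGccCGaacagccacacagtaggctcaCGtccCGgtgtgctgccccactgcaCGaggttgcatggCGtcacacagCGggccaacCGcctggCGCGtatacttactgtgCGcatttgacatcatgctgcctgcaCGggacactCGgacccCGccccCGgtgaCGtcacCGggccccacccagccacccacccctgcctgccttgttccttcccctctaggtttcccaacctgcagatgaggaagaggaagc
Kl (chr5:150952357-150952606, + strand): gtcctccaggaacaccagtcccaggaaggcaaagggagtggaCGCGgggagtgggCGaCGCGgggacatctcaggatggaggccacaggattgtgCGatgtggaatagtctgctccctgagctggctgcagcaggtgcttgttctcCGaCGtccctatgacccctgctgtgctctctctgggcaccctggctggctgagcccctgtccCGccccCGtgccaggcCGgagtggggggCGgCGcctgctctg
Rarg (chr15:102257523-102257772, - strand): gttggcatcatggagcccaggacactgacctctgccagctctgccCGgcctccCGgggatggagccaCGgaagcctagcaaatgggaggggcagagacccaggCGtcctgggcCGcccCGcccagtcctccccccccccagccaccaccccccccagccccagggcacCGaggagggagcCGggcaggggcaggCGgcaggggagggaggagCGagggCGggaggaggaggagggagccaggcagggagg

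The Ascl2 run holds 19 CpG, the Phlda2 run 21, the Csf2ra run 17, the Kl run 13 and the Rarg run 11. The median over the 32851 promoters of the table, cut to the same 250 bases, was 6. The hexamer TGCCGC, searched on both strands, stands in the Rarg run and in none of the other 4, against 8.68% of the 250-base runs of the table. None of the 5 runs holds the telomere unit TTAGGG on either strand. The peak over the Ascl2 promoter held 69.1 normalized tags, a depth-scaled count in which 1 tag is worth 1.0476, and 7 control tags. The Csf2ra peak held 416.4 normalized and 27 control tags, and the Phlda2 peak 40.9 and 4. The Kl and Rarg peaks held 42.4 normalized tags each, with 3 and 4.5 control tags. Folds over the control were 6.45 for Ascl2, 6.67 for Phlda2, 10.07 for Csf2ra, 9.24 for Kl and 6.16 for Rarg. The distal median fold was 12.32. Not every promoter wholly inside a distal peak was rich in CpG: the 250 bases of Igf2 and of Aatk held 6 each.

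Counted over all RefSeq promoters, here with the first 50 transcribed bases added to the 250, 146 of 963 distal promoters were touched by a peak. That share was 15.2% (13 to 17.6, exact 95% interval), against 12.8% in the rest of the autosomes and 12.9% over all promoters tested. The promoter table covers 17 of the 18 autosomes here. Touched distal promoters had a median of 19 CpG and untouched ones 6. In the rest of the autosomes the same medians were 18 and 6. At least 20 CpG stood in 46.6% of touched and 24.7% of untouched distal promoters. TGCCGC stood in 17.8% of touched and 11.4% of untouched distal promoters, and in 11.6% of the whole table. TTAGGG stood in 3.42% of touched and 10.4% of untouched distal promoters, and in 11.9% of touched promoters in the rest, and 2 such units in tandem stood in none of the distal promoters and in 4 of the 32851. Touched promoters were thus richer in CpG than untouched ones in the distal windows and in the rest alike.

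The 1080 peaks lay in 54 Mb at 20 peaks per Mb (18.8 to 21.2, exact Poisson 95% interval). The rest of the same chromosomes, from the first peak of each to the start of the window, held 33853 peaks in 2195 Mb, at 15.4 per Mb (15.3 to 15.6). The ratio was 1.30 (1.22 to 1.38). Intervals here cover counting error only, and neighbouring peaks are not independent, so they are narrower than a replicate would give. The excess was uneven: chromosomes 7, 10, 11 and 15 held 460 of the distal peaks, or 42.6%. With those 4 left out together the distal density was 14.8 per Mb and that of the rest 14.8, a ratio of 1.00 (0.922 to 1.08). Without chromosome 11 alone the ratio was 1.15 (1.08 to 1.23).

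The distal window of chromosome 11 was the fullest, with 185 peaks and a ratio to the rest of its chromosome of 3.19 (2.73 to 3.71). Chromosome 10 followed with 96 peaks and a ratio of 2.00 (1.61 to 2.45), and chromosome 15 with 94 peaks and 1.96 (1.58 to 2.42). Chromosome 7 held 85 distal peaks with a ratio of 1.46, and chromosome 2 held 73 with a ratio of 1.58. In these 5 the interval of the ratio lay wholly above 1. It lay wholly below 1 on chromosome 16, with 26 peaks and a ratio of 0.640, on chromosome 17, with 37 and 0.572, and on chromosome 19, with 22 and 0.459. The other 10 autosomes held 35 to 69 distal peaks, with ratios from 0.803 on chromosome 8 to 1.32 on chromosome 14. Density was above the rest in 11 autosomes and below it in 7.

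**Figure D1:**
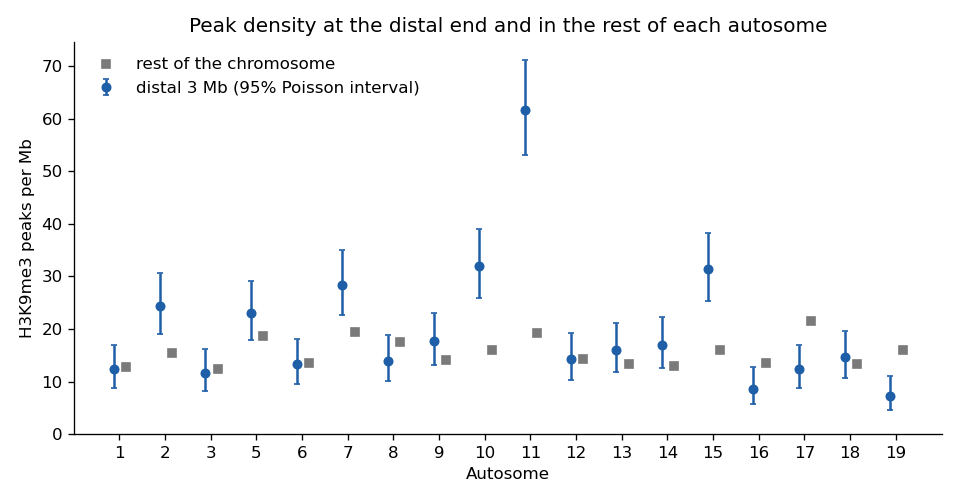
Peaks per Mb in the distal 3 Mb (circles, exact Poisson 95% intervals) and in the rest (squares) of each of the 18 autosomes. Chromosome 11 stands highest at 61.7 per Mb against 19.3 in its rest, while chromosomes 16, 17 and 19 fall below their rest.

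The distal window was the fullest 3 Mb window of its chromosome on none of the 18 autosomes. It ranked second on chromosomes 10 and 11, and it stood above the median window on 14 autosomes and equalled it on 1. The stretch just inside the distal window was denser still: 22.4 peaks per Mb at 3 to 4 Mb, 25.1 at 4 to 5 Mb and 23.0 at 5 to 10 Mb from the last peak end. Against the next 7 Mb alone the distal density had a ratio of 0.862. Chromosome 4, which the rule leaves out, held 234 peaks in its distal 3 Mb, or 78.0 per Mb. The first 3 Mb from the first peak, at the centromere side of the 18 autosomes, held 1051 peaks at 19.5 per Mb, close to the distal value.

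The members just inside the 3 Mb limit were ordinary peaks. At 2999.8 kb lay a peak in Lrp1 on chromosome 10 with 26.7 normalized tags, and at 2999.65 and 2996.83 kb lay peaks of chromosome 5 with 11.5 and 9.95. Just outside, at 3002.62, 3003.67 and 3004.12 kb, lay peaks of chromosomes 8, 11 and 14 with 15.7, 9.95 and 11 normalized tags.

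Pooled over the 18 autosomes, gene density was higher at the distal ends, as peak density was. The distal windows held 647 protein-coding genes by the midpoint of the span, or 12.0 per Mb, and the rest 8.48 per Mb, a ratio of 1.41 (1.30 to 1.53). Single autosomes varied: gene density was above the rest in 9, both densities were above it in 7 and both below in 5, and chromosome 10 alone held 129 of the 647 genes. Peaks per protein-coding gene were 1.67 in the distal windows and 1.82 in the rest, a ratio of 0.918 (0.863 to 0.975). That direction turned with a 5 Mb window, at 1.07, and the ratio was 0.997 with chromosome 4 included. The lowest value of any distal window, 0.744 peaks per gene, was on chromosome 10. Chromosome 10 held 96 of the 1080 distal peaks and 129 of the 647 distal genes. Its rest held 1991 of 33853 peaks and 872 of 18610 genes. With these counts taken out, peaks per gene were higher in the distal windows than in the rest, so the direction depends on chromosome 10. No interval was computed for that setting. Across the 18 windows, peaks and genes had a Spearman correlation of 0.631 and a Pearson correlation of 0.713, and over all 741 windows of 3 Mb on these autosomes the Spearman value was 0.613. These correlations are descriptions: the windows share 1 library, and GC content, which was not analysed here, varies with gene density. Peak density was higher both inside and outside gene spans. Inside protein-coding spans it was 22.7 per Mb in the distal windows and 18.1 in the rest, and outside them 17.9 and 13.6.

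**Figure D2:**
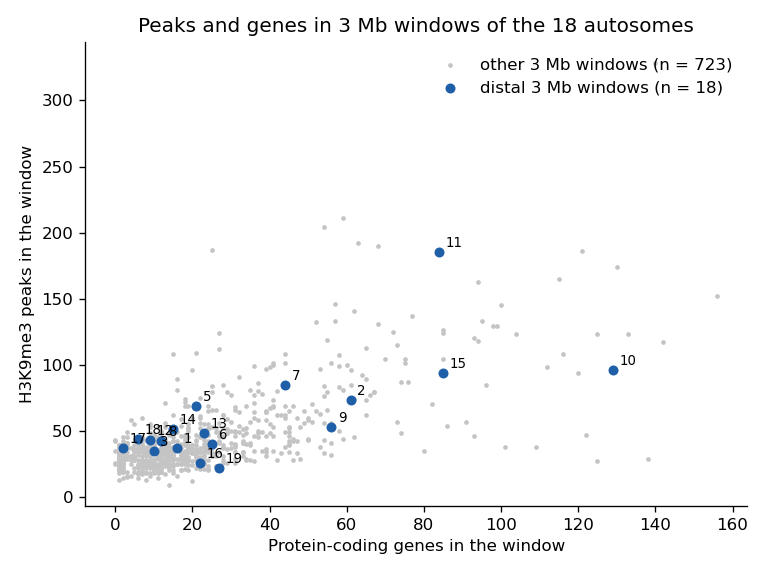
H3K9me3 peaks against protein-coding genes in 3 Mb windows, with the 18 distal windows numbered by chromosome (blue) and the other windows of the same autosomes in grey. Chromosome 11 combines 84 genes with 185 peaks, and chromosome 10 has more genes, 129, with 96 peaks.

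Set beside other windows of like gene content, the distal windows were not uniformly fuller. Among windows with 0 to 9 genes the median was 43 peaks in 3 distal windows and 30 in 187 others. With 10 to 19 genes it was 39.5 in 4 distal and 34 in 206 other windows. With 20 to 39 genes it was 40 in 5 distal and 40 in 193 other windows. With 40 to 79 genes it was 73 in 3 distal and 65.5 in 104 others. With 80 genes or more it was 96 in 3 distal windows, which ran from 94 to 185, and 118 in 33 others. Each class holds few distal windows, and the medians differ in no common direction.

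In width, tags and fold the median distal peak was close to that of the rest. The median distal peak was 761.5 bp wide (721 to 776, order-statistic 95% interval) and the median of the rest was 765 bp. The median held 17.3 normalized tags in both, which is 16.5 tags, and the median fold over the control was 12.32 in both. Peaks of the lowest common width, 500 bp, made up 31.0% of distal peaks and 32.4% of the rest. Peaks of 3 kb or more numbered 15, or 1.39% (0.779 to 2.28), against 1.13%. The widest distal peak covered 8828 bp at chr19:60925107-60933935 in Grk5, a kinase of G protein-coupled receptors, and held 321.6 normalized and 14 control tags. The next was 5786 bp at chr9:124437393-124443179 over LOC108167320, with 364.6 and 22.

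Strong peaks were more frequent per Mb in the distal windows, though not as a share of the peaks. They are defined, after the values were seen, as the top 10% of the whole list (50.8 normalized tags or more). The members include 111, which is 10.3% of them, near the 9.83% over the 18 autosomes, but 2.06 per Mb against 1.51 in the rest, a ratio of 1.36 (1.11 to 1.64). These strong peaks stood toward the chromosome end. They were at 13.3 per Mb in the last 100 kb (7.22 without the last peaks), 5.56 at 100 to 200 kb and 2.59 at 200 to 500 kb, and at 0.889 to 1.44 per Mb in each 500 kb step from 1 to 3 Mb. With the last 200 kb left out, the distal windows held 1.53 strong peaks per Mb, a ratio to the rest of 1.01.

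**Figure D3:**
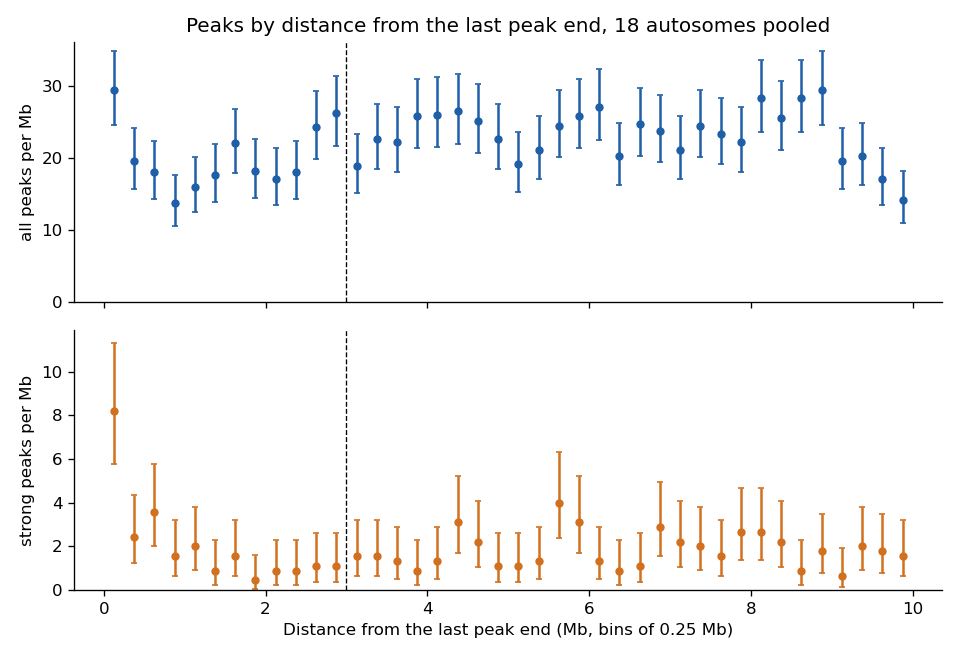
Density of all peaks (top) and strong peaks (bottom) in bins of 0.25 Mb from the last peak end, 18 autosomes pooled, with exact Poisson 95% intervals; the dashed line marks 3 Mb. The outermost bin has 8.22 strong peaks per Mb and 29.3 peaks per Mb, and the density of all peaks rises again toward 3 Mb.

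The last 200 kb of the 18 autosomes together held 117 peaks at 32.5 per Mb (26.9 to 39). Since the anchor forces in the last peak of each, the same stretch was counted without them: 99 peaks at 27.5 per Mb and 23 strong ones at 6.39 per Mb (4.05 to 9.59), on 12 autosomes. Of those 23, 18 had no more than 10 control tags, at 5.00 per Mb (2.96 to 7.90), against 1.40 per Mb in the rest. The centromere side gave like values. The first 200 kb from the first peak, without that peak, held 97 peaks at 26.9 per Mb and 26 strong ones at 7.22 per Mb, on 9 autosomes. Strong peaks near the outer border of the called sequence were therefore seen at both ends.

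Several of these end peaks had few control tags, though not all did. At chr8:129267345-129269053 in Gm32856, 33.9 kb from the last peak end, a peak held 101.6 normalized tags over 1.5 control tags, a fold of 44.25. On chromosome 10, 29.2 kb from the last end, a peak between genes held 92.2 over 4. On chromosome 5, beside Rfc3, a subunit of the clamp loader of DNA replication, a peak 79.8 kb from the last end held 70.2 over 3. Csf2ra, the alpha chain of the GM-CSF receptor, carried a peak of 4477 bp at chr19:61224459-61228936, 107 kb from the last end, with 27 control tags and a fold of 10.07. Not every end was alike: the last 200 kb of chromosomes 6, 11 and 12 held 8, 3 and 2 peaks, none of them strong.

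The tallest members had high control tags, and not all of them stood at the border. The 10 tallest distal peaks held 52.2% of all normalized tags in distal peaks. Over 1000 normalized tags stood 8 of the 1080 members and 19 of the 33853 peaks of the rest. Those 10 include the last peak of 6 autosomes, placed at the border by the anchor, and peaks in Tmem267 719 to 726 kb from the last end. The last peak of chromosome 14, chr14:124801346-124802265, held 6957.8 normalized and 861 control tags. That of chromosome 7, chr7:145340396-145341481, held 6778.2 and 971.5, and lay 16337 bp from Mrgprd, a receptor of sensory neurons. The last peaks of chromosomes 18, 19, 1 and 13 held 5112.4, 2767.3, 1936.5 and 1108.9 normalized tags, with 617, 424, 152 and 174 control tags.

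The last peaks covered a wide range. Of the 18, 11 were strong and 8 had more than 10 control tags, and their median was 88.0 normalized tags. They held 42.8% of the normalized tags and 56.7% of the control tags of all members. Chromosomes 5 and 16 ended in peaks of 320.1 and 196.4 normalized tags, with 41 and 28.5 control tags. Chromosomes 8, 3 and 2 ended in peaks of 100, 76 and 71.8. The lowest last peaks were those of chromosomes 11, 17 and 15, with 9.95, 11.5 and 13.6 normalized tags and 0.5 control tags each. Those of chromosomes 6, 9, 12 and 10, with 36.7, 35.6, 30.9 and 21.0, lay on Bicd1, a dynein adaptor, on Ppp2r3d, on Tmem196 and on the pseudogene Ftl1-ps2.

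**Figure D4:**
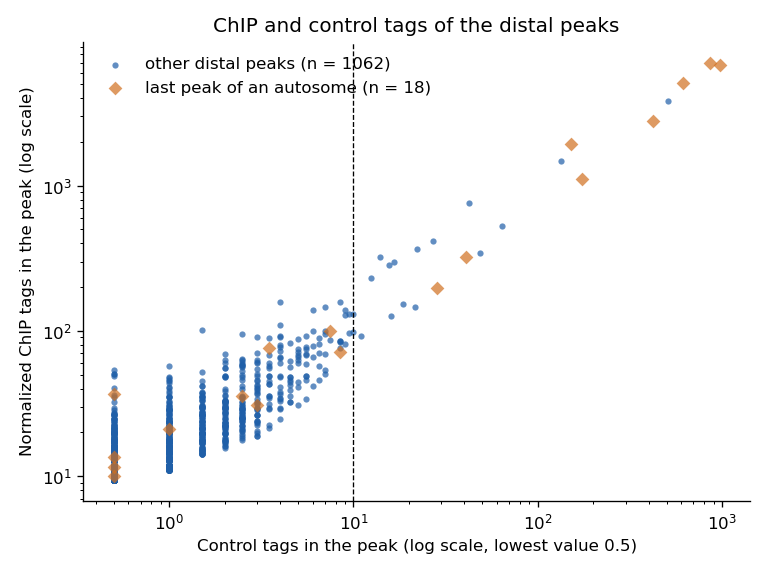
Normalized ChIP tags against control tags for the 1080 distal peaks, both on log scales; diamonds are the last peak of each autosome and the dashed line marks 10 control tags. ChIP and control tags rise together, as they must at the high end, since no fold in the list is under 4. The last peaks of chromosomes 7, 14 and 18 stand highest on both, from 5112.4 normalized and 617 control tags up.

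Peaks with more than 10 control tags numbered 23, or 2.13% (1.35 to 3.18) of the members, against 0.756% in the rest and 0.799% over the 18 autosomes. Per Mb the ratio was 3.65 (2.27 to 5.6). Of the 23, 8 are last peaks, which the anchor forces in: the share was 2.82 times that of the rest with them, 1.87 times without them and 1.37 times without the last 200 kb. All 23 were strong, which was fixed in advance. With no fold under 4 in the list, over 10 control tags require more normalized tags than the strong cutoff of 50.8. Within 1 Mb of the last end lay 20 of the 23, and 13 autosomes had at least 1. Mean normalized tags were 55.4 in the distal windows and 27.3 in the rest, and 23.9 and 24.4 among peaks with at most 10 control tags. The caller's clonal fold stood at 0.23, 0.38 and 0.41 for the last peaks of chromosomes 14, 7 and 18, where the distal median was 0.97, and the part of clonal reads in these tags was not tested.

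Chromosome 13 held 5 of the 23, and 3 of the 10 tallest members lay in 1 gene there. Tmem267 carried 8 peaks, 7 of them strong. The tallest, chr13:119595849-119599837, held 3804.5 normalized and 510 control tags, and its neighbours at 119600703 and 119602677 held 1485 with 133.5 and 524.3 with 64. Further out lie the Tcstv genes, which are expressed at the 2-cell stage of the embryo. The last peak of the chromosome, chr13:120320810-120321660, lay 2549 bp from Tcstv3, with 1108.9 normalized and 174 control tags. Tcstv1 had no peak on its span or within 5 kb. Without chromosome 13 the share of members over 10 control tags was 2.30 times that of the rest.

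Peak centres lay in protein-coding genes for 50.0% (47.0 to 53.0) of the members and 47.9% of the rest, and between genes for 41.6% and 43.5%. Marked genes were those with a peak on the span or within 5 kb of it. By that measure 374 of 647 distal protein-coding genes were marked, 57.8% (53.9 to 61.6), next to 56.6% over all protein-coding genes of the 18 autosomes. A strong peak marked 45, or 6.96% (5.12 to 9.20), next to 6.62%. By the gene span alone, the share of genes with any peak was 46.1% in the distal windows and 47.4% in the rest. With 2 kb on either side it was 51.0% and 51.8%. Distal genes were shorter, with a median span of 13.1 kb against 17.7 kb. Among genes under 5.93 kb long, 45.9% of 185 distal genes were marked and 39% of those in the rest, and among genes over 45.3 kb long 71.2% of 118 and 73.4%. In the last 1 Mb, 32.8% of peak centres lay in protein-coding genes, against 48.1% in the remainder. Gene density there, counted by midpoints, ran from 10.6 per Mb in the last 100 kb to 13.3 at 500 to 1000 kb, against 8.48 in the rest. The length of coding spans in the last 1 Mb is not given here, and the cause of the lower share was not tested.

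The genes with most peaks stood on chromosomes 11, 14, 2, 7, 13 and 5. Bahcc1, a BAH-domain chromatin protein, had 17 on chromosome 11, the tallest with 77.5 normalized tags over 4 control tags. Tbc1d16, a Rab GTPase-activating protein, had 12, none of them strong, and Baiap2, an actin regulator, had 9. On chromosome 14 Itgbl1 and Fgf14 had 10 each and the sodium leak channel gene Nalcn had 8, with tallest peaks of 131.5, 92.7 and 96.9 normalized tags. Shank2, a scaffold of synapses, Cdh4, a cadherin, and Lama5, a laminin of basement membranes, had 10 each, none strong. Fry had 8 on chromosome 5. The densest 250 kb of any distal window, with 33 peaks, lay at 2750 to 3000 kb on chromosome 11. Among its genes are Cbx2 and Cbx8, chromobox subunits of Polycomb complexes, which had 3 and 4 peaks, and the tallest peak near Cbx8 held 60.2 normalized over 5 control tags.

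**Figure D5:**
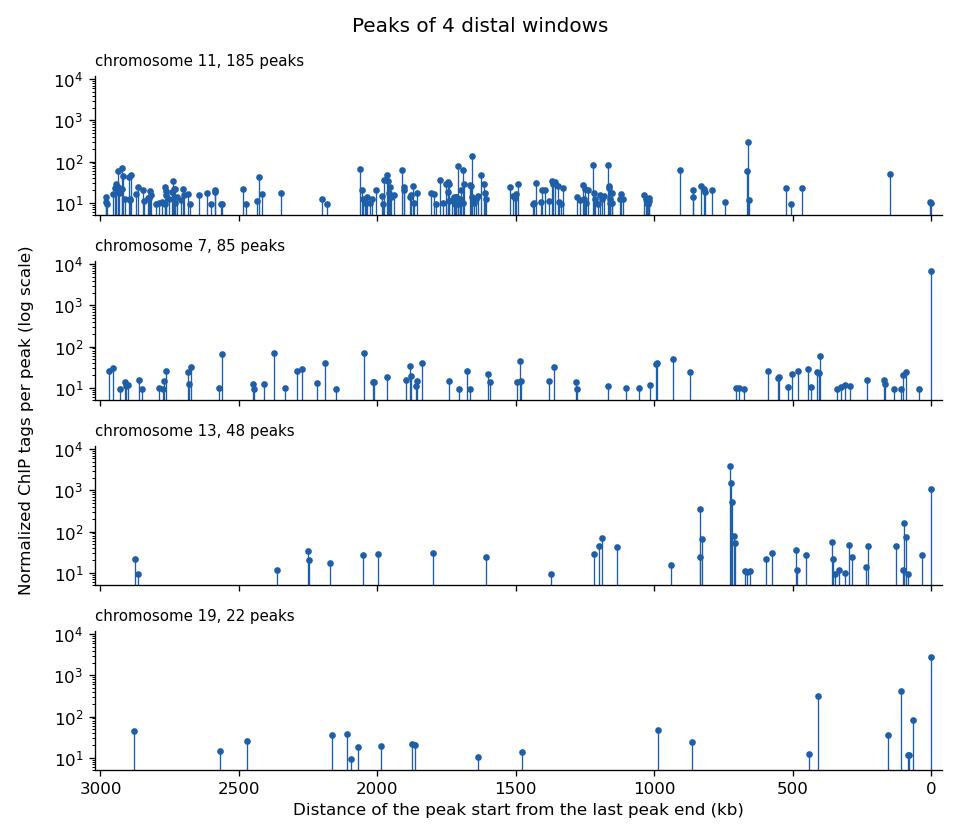
Normalized ChIP tags of each peak (log scale) along the distal 3 Mb of chromosomes 11, 7, 13 and 19, by distance from the last peak end. Chromosome 11 carries 185 mostly low peaks, chromosome 13 a tall group 719 to 726 kb from its end, and chromosomes 7, 13 and 19 end in a tall last peak.

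The distal window of chromosome 7 holds the imprinted H19-Igf2 and Kcnq1 domains, where 1 parental allele is silenced. Of the 18 listed genes, 16 were marked, 3 of them by a strong peak. Of these 3, Kcnq1 and Kcnq1ot1 share 1 strong peak. In this whole window, listed genes included, 33 of 44 protein-coding genes were marked, or 75%. Over the 18 autosomes the share was 56.6%. H19, a noncoding RNA, had 2 peaks. The taller, chr7:142579850-142581051, lay 1704 bp beyond the upper end of H19 on the side of Igf2, with 25.1 normalized tags over 1 control tag. The control region of this domain is known to lie on that side of H19. Igf2, a fetal growth factor, had 3, the tallest with 31.4 over 3.5 at 2752 bp beyond its upper end. Ins2, the insulin gene between Th and Igf2, had none, nor had Nap1l4.

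Kcnq1, a potassium channel gene, had 7 peaks, 6 of them from 9 to 38.5 tags. The tallest, chr7:143295019-143296344, held 68.1 normalized over 5.5 control tags and is the 1 peak on Kcnq1ot1, the long noncoding RNA that silences its neighbours on the paternal allele. It ended 203 bp inside the transcript from its start on the minus strand. The promoter of Kcnq1ot1 is known as the control region of this domain, methylated on the maternal allele. Cdkn1c, a cyclin-dependent kinase inhibitor silenced on the paternal allele, had 2 peaks of 34 and 19.4 normalized tags, over 5.5 and 1.5 control tags. Their folds were 4.04 and 8.44, and none in the list was under 4. Slc22a18 had 3 peaks, and Phlda2, a regulator of placental growth, had the 1 over its promoter, which also counts for Slc22a18. The files do not separate alleles.

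Ascl2, the transcription factor of Lgr5-positive intestinal stem cells, was the only one of 20 listed stem cell markers in a distal window. Its single peak, chr7:142967628-142969837, covered most of the gene and the promoter shown above, and held 66 tags (51.0 to 84.0), which is 69.1 normalized, over 7 control tags, a fold of 6.45. Of the other 19 markers elsewhere, 14 were marked, or 73.7%, next to 56.6% of all protein-coding genes.

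The listed developmental regulators in the distal windows were each marked, mostly by low peaks. The 9 Hox genes of the C cluster on chromosome 15, which pattern the body axis, were marked in 9 of 9 cases, none strongly. The share over all protein-coding genes was 56.6%. These 9 genes lie close together, so 1 peak can count for more than 1 of them. Hoxc6 had 3 peaks, of which the tallest held 39.8 normalized tags over 2 control tags, Hoxc4 and Hoxc10 had 3 each, and Hoxc5 had 2. All 5 distal FGF genes were marked, against 11 of 15 elsewhere. Of these, Fgf15, the ileal hormone that restrains bile acid synthesis, had 1 peak of 28.8 over 1, and Fgf10 1 peak of 24.1 over 1.5. All 6 listed regulators of the homeobox, Zic and Sp families were marked (Emx2 and Sp8 with 2 peaks, Sp4, Zic2, Zic5 and Vax1 with 1), against 13 of 15 elsewhere.

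Several clustered gene families had shares below the 56.6% over all protein-coding genes. Among olfactory receptors, expressed in sensory neurons of the nose, 7 of 58 distal genes were marked (12.1%), against 80 of 1041 elsewhere (7.68%). Olfr784 and Olfr247 had 2 each. Chromosome 10 differed on either side of the first of these receptors: the outer 1.60 Mb held 36 peaks at 22.5 per Mb and 10 of 65 marked genes, and the inner 1.40 Mb held 60 at 42.9 per Mb and 44 of 64. Keratins of chromosome 15 were marked in 10 of 26 cases, against 9 of 27 elsewhere. The epithelial keratins Krt18 and Krt8 had 2 and 1 peaks, and Krt5 had none. Of 8 chemokine receptors 1 was marked, Xcr1, with a peak of 12.0 normalized tags over 1. Mx1 and Mx2, interferon-induced antiviral genes, had none. Zinc finger genes were marked in 7 of 10 cases, with Zfp651 at 5 peaks, against 60.3% elsewhere, and solute carriers in 7 of 10, with Slc16a3, a lactate transporter, at 5, against 70.2%. One microRNA hairpin, Mir1932 on chromosome 11, lay under a distal peak, of 19.9 normalized tags over 2.

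Long stretches of the distal windows had no peak. The longest, 1037 kb on chromosome 8, spans Pard3, a polarity gene. Chromosome 1 had 837 kb without a peak and no protein-coding gene in it. Chromosome 16 had 779 kb with 6 genes, among them Dscam, a neuronal adhesion molecule, and chromosome 6 had 590 kb around Ccdc91. Chromosome 17 had the fewest genes, 2 in its 3 Mb, and 37 peaks, with 1 of the 2 genes marked. A stretch without peaks shows only that none was called at this depth.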

How the data were processed

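H3K9me3 ChIP-seq was deposited as 1 peak list from 1 ChIP library, with the control library seen through its tags in those peaks. Bowtie2 2.2.8 and HOMER 4.10.1 are named in the submitters' processing notes, with builds GRCm38 and mm10, and per the file headers the columns are those of HOMER findPeaks. Its options, not given in the sources used here, set which peaks pass. Normalized and control tags, as deposited, are coverage signals. The deposited fold is the ratio of scaled ChIP to control tags, with none under 4. It depends on a control floor of 0.5 tags, at which 41.4% of members stood. The deposited score of each peak served only to filter. The deposited p-value of each peak was at most 8.32e-05 and was not used further.

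Low values were whole steps of 0.5 tags in 100% of cases, within a tolerance of 0.1 step, which gave tags per peak. The library total is not in the file, so the depth is unknown; a median peak rests on 16.5 tags. Distances ran from the last peak end of each autosome. Genes came from a RefSeq table of GRCm38.p6 without strand: 46709 of its 49997 genes were used, on autosomes. A promoter entry was matched for 511 of the 647 distal protein-coding genes. Intervals are exact Poisson, Clopper-Pearson or order-statistic at 95%, and no test was made, with 1 library. Named genes were the 10 with most peaks and ties, those nearest the 10 tallest and the last peaks, and up to 4 per list, with a few chosen after their values were seen. The members and lists were chosen with earlier results of these data known. The counting was tested on simulated positions. Alternatives changed the window, the peaks kept and the autosomes used. Python 3.11.15, numpy 2.4.6, pandas 2.3.3, scipy 1.17.1 and matplotlib 3.10.9 were used. Peak sequences and repeats were not analysed here.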

Additional observations from a re-analysis of the deposited data

How the results depend on the processing

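Of 64 ratios of distal to rest under other settings, 43 stayed within the counting interval of the value reported. Another 18 moved beyond it and 3 changed direction. The runs without 1 autosome are left out of these counts. A change of direction was counted only where the interval of the reported value excluded 1. Where it included 1, a ratio could cross 1 uncounted, as width, centres in protein-coding genes and genes marked did with a 1 Mb window. The share of genes marked also did so by the gene span alone and with 2 kb on either side. The number of autosomes with a higher distal density, 11, ran from 10 to 13 over 7 settings. The counted changes of direction were peaks per protein-coding gene, at 1.07 with a 5 Mb window, and peak density. That density ratio was 1.00 (0.9997) without chromosomes 7, 10, 11 and 15, and 0.862 against the next 7 Mb alone. Those last settings were chosen after seeing the data. With a 1 Mb window strong density was 2.62, width 1.07, tags 1.27, the share over 10 control tags 7.35, centres in protein-coding genes 0.681 and genes marked 0.862. With a 2 Mb window strong density was 1.71, width 1.02, tags 1.12 and peaks per gene 0.860. With a 5 Mb window density was 1.41, centres in genes 1.11 and genes marked 1.14. With chromosome 4 included density was 1.48 and peaks per gene 0.997. At a fold of 8 or more the median tags had a ratio of 0.964. Without the last 200 kb the share over 10 control tags was 1.37 and strong density 1.01, the latter setting added after seeing the data. Leaving out each autosome in turn, density ran from 1.15 to 1.35, strong density from 1.27 to 1.41, width from 0.990 to 1.00, tags from 1.00 to 1.03 and the control share from 2.30 to 3.17. The cause was not tested. No paired analysis was possible because there is 1 ChIP library, no replicate number and no test. A median peak of 16.5 tags limits what a single peak can show, and a stretch or gene without a peak is not shown to lack the mark.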
